A study of Rattus norvegicus with 12 samples.

Results

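Distal chromosome 12 of the rat is the stretch from 45 Mb to the end of the sequence at 52716800 (Rnor_6.0), cut into 77168 windows of 100 bp. It holds 14.6% of the 527168 windows of chromosome 12 and 0.277% of the 27820300 windows of the genome. The stretch was chosen by its lineage differences, which an earlier look at the same counts had shown, so every lineage value given here is a description without a test. The values at the edge that the rule set were low on both sides. The last window outside held 0 to 2 reads per pool and the first window inside 0 or 1.

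DNA methylation was measured by MeDIP-Seq, in which an antibody pulls down fragments with methylated cytosines and the reads are counted by position. The 12 samples were pools of ventral prostate cells from F3 generation rats of the outbred Hsd:Sprague Dawley SD®™ stock, taken at 19 to 21 days of age. Each cell type, epithelial and stromal, had 3 pools of the control lineage and 3 of the vinclozolin lineage. F0 generation females of the vinclozolin lineage received vinclozolin at 100 mg/kg body weight on each of gestation days 8 to 14, and those of the control lineage received the vehicle dimethyl sulfoxide. The F3 rats themselves were not exposed. Each pool joined several rats, and its tissue was divided into both cell types. Epithelial and stromal pools are thus not independent of each other, and those with the same number were taken to come from the same rats. The labels do not state this match. The labelled cell types were not checked against marker genes, because counts of methylated DNA do not measure expression.

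As background, vinclozolin is a fungicide whose breakdown products block the androgen receptor, and the ventral prostate depends on androgens. Its epithelium secretes into the gland and its stroma, largely smooth muscle and fibroblasts, surrounds it. The study describes the stromal cells that it isolated as primarily mesenchymal fibroblasts. In mammals DNA methylation sits mostly on cytosines that precede a guanine. A read count in MeDIP rises with the number of such methylated sites in a fragment as well as with their methylation, so counts are compared here at the same window and not between windows. Fragments are longer than a window, and neighboring windows share reads.

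Total counts ran from 57135700 to 112304623 per pool, of which 242371 to 465152 fell in distal chromosome 12. The deepest libraries were the vinclozolin lineage pools 1 and 2 of stromal cells and pool 2 of epithelial cells. The tables hold no count above 300, and the highest count in the stretch was 246. The windows of the stretch were somewhat fuller than elsewhere. In epithelial cells 58.4% of them held 10 or more reads in the 6 pools together, against 52.8% in the rest of chromosome 12 and 41.4% in the genome. In stromal cells the shares were 59.7%, 54.2% and 41.9%. A window with no read in any epithelial pool made up 7.34% of the stretch and 13.1% of the rest of the chromosome.

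The first question was whether the stretch as a whole carried more or less of the chromosome's reads in the vinclozolin lineage. In epithelial cells it held 16.25%, 16.37% and 16.17% of chromosome 12 counts in the control lineage pools and 16.16%, 16.22% and 16.31% in the vinclozolin lineage pools. In stromal cells the shares were 16.2%, 16.29% and 16.44% in the control lineage and 16.22%, 16.01% and 16.03% in the vinclozolin lineage. The groups overlapped in both cell types. The mean difference, vinclozolin minus control, was -0.0347 percentage points in epithelial and -0.224 in stromal cells. The SDs of the control and vinclozolin lineages were 0.0988 and 0.0761 points in epithelial and 0.118 and 0.115 in stromal cells. The stromal difference was -0.0504 over windows of at least 40 reads in all, and the epithelial difference was 0.0178 without control pool 2. Over windows the median log2 fold change was -0.013 in epithelial and 0.004 in stromal cells, against -0.006 and 0.036 in the rest of chromosome 12.

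Single windows were described next. With edgeR's exact test, 9 of 45093 epithelial windows tested in the stretch had a p-value under 1e-06, 6 of them higher and 3 lower in the vinclozolin lineage. In the genome 0.00318% of windows tested passed that limit, 0.00143% higher and 0.00175% lower. In stromal cells 23 of 46032 windows passed, 11 higher and 12 lower, against 0.0136% of windows in the genome, 0.00158% higher and 0.0121% lower. In the rest of chromosome 12, 0.00632% of epithelial and 0.0193% of stromal windows passed 1e-06. Under 0.001 there were 173 epithelial windows in the stretch (0.384% of those tested). The share was 0.323% in the rest of chromosome 12 and 0.25% in the genome. The stromal number was 311 (0.676%), with 0.521% in the rest of chromosome 12 and 0.434% in the genome. These counts are what the stretch was picked on, and nothing is read from their height.

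Neighboring windows were merged when their p-values were below 0.1 and their starts no more than 1000 bp from each other, and a merged region counted as called once it held a window below 1e-06. This gave 5 regions in epithelial cells, 3 higher and 2 lower in the vinclozolin lineage, and 15 in stromal cells, 5 higher and 10 lower. The epithelial count was 1 with DESeq2, 2 without vinclozolin pool 2 and 9 by the quasi-likelihood test with pool number as a replicate block, and it was 6 higher and 1 lower when no filter on low counts was set. The stromal balance was not stable either, with 10 higher and 1 lower when no filter on low counts was set (median log2 fold change over the stretch 0.12, against 0.00441), and 3 higher and 0 lower with DESeq2. In the genome 309 epithelial regions were called, 46.3% of them higher, and 1110 stromal regions, 13.4% of them higher. Nothing is read from these counts, since the stretch was picked on them. The rest of chromosome 12 had 12 epithelial regions, of which 2 were higher, and 37 stromal regions, of which 5 were higher. At the same limit the study's own list holds a further epithelial region in the stretch, assigned to Srrm4. It was higher in the vinclozolin lineage there and was not called here. Regions are numbered along the chromosome, E1 to E5 for epithelial and S1 to S15 for stromal cells. They were 400 to 2900 bp long in epithelial and 400 to 4500 bp in stromal cells, and covered 8000 and 27100 bp. The smallest p-value just outside the limit was 1.11e-06 in either cell type, and the largest just inside was 9.54e-07 in epithelial and 8.12e-07 in stromal cells. For each region the value given is that of its window with the smallest p-value, as reads and as CPM (reads relative to the total of each library, with TMM factors applied). With CPM summed over the whole region, the log2 fold change was 0.58 in E1, 0.5 in E5, 0.27 in S3 and 0.53 in S11. Their single windows had 1.52, 1.89, 2.51 and 2.52. The 2 kb on either side of S3 had 0.21. The region value was smaller in size than the window value also in E2 (-2.61 against -4.16) and S1 (0.91 against 2.2). It was so again in S5 (1.1 against 2.19) and S6 (-0.63 against -2.19). In S13 the values were close, with -0.71 over the region and -0.69 at the window. Over all windows tested in the genome, the CPM of the 3 vinclozolin lineage pools lay wholly above that of the control lineage in 6.78% of epithelial and 9.23% of stromal windows, and wholly below it in 5.98% and 5.54%.

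**Figure D1:**
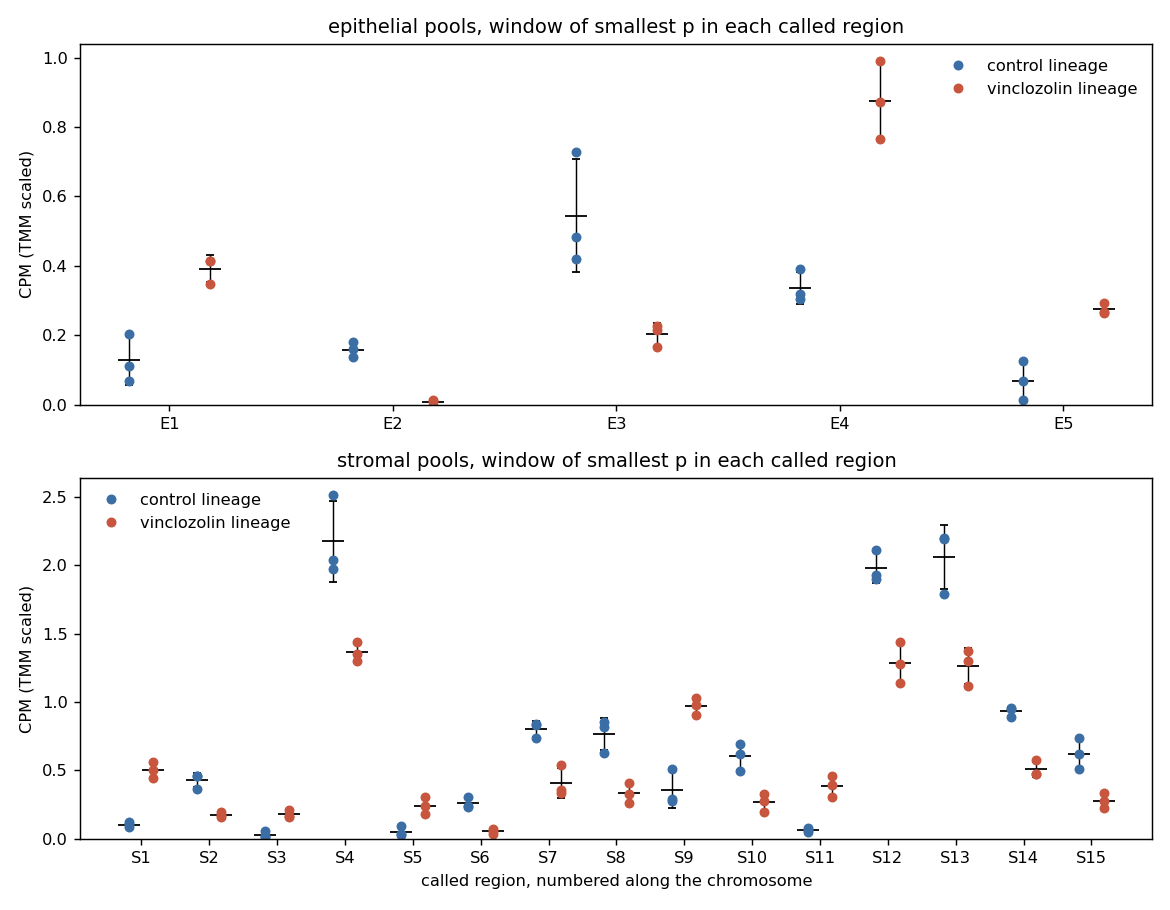
CPM in the window of smallest p-value of each called region of distal chromosome 12, in the cell type in which it was called, with epithelial regions E1 to E5 above and stromal regions S1 to S15 below. Points are pools, horizontal marks the mean of 3 pools and bars the SD; the pools of the lineages do not overlap in any of the 20 regions, which is part of what called them.

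A pair of regions was called in both cell types, and both were higher in the vinclozolin lineage. The first spans 50526301 to 50527600 in epithelial cells (E4) and 50526101 to 50529100 in stromal cells (S9), which holds the whole of E4. At its epithelial window, 50527001 to 50527100, the control lineage pools had 23, 28 and 22 reads and the vinclozolin lineage pools 64, 95 and 74. As CPM these were 0.337 ± 0.0461 (SD, n = 3) and 0.876 ± 0.112 (SD, n = 3), and the log2 fold change was 1.39 (standard error 0.218). All vinclozolin lineage pools lay above all control lineage pools. The stromal window of smallest p-value lay 200 bp further on, with 16, 19 and 38 reads in the control and 111, 99 and 70 in the vinclozolin lineage (log2 fold change 1.39, standard error 0.194). Both calls were kept whichever pool was left out.

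The difference was uneven across the methylated peak there. Around the stromal window, the stromal CPM was 0.392 ± 0.102 (SD, n = 3) for the control and 1.02 ± 0.142 (SD, n = 3) for the vinclozolin lineage at 300 bp before it, and 0.622 ± 0.0564 and 0.674 ± 0.112 (SD, n = 3 each) at 500 bp after it, where the pools overlapped. On the low edges of the peak the stromal pools separated in both directions. At 800 bp after the window the CPM was 0.0504 ± 0.0229 in the control and 0.131 ± 0.00579 in the vinclozolin lineage, and at 1000 bp before it 0.0866 ± 0.0137 and 0.0277 ± 0.0247 (SD, n = 3 each). In epithelial pools the CPM was 0.324 ± 0.0862 and 0.859 ± 0.127 (SD, n = 3 each) at 300 bp before the window, and 0.577 ± 0.0804 and 0.666 ± 0.0794 (SD, n = 3 each) at 500 bp after it.

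The second pair spans 50774501 to 50777400 in epithelial cells (E5) and 50775001 to 50779500 in stromal cells (S11), with 2400 bp in common, 82.8% of E5 and 53.3% of S11. Its window of smallest p-value, 50776501 to 50776600, was the same in both cell types. Epithelial pools had 4, 11 and 1 reads there in the control lineage and 22, 29 and 22 in the vinclozolin lineage (log2 fold change 1.89, standard error 0.361). Stromal pools had 3, 5 and 5 reads in the control and 33, 50 and 28 in the vinclozolin lineage (log2 fold change 2.52, standard error 0.344). The groups did not overlap in either cell type. The stromal call was kept whichever pool was left out, while the epithelial call was kept in only 2 of 6 such fits. The epithelial log2 fold change was 2.84 without control pool 2, where the call was kept. It was 1.42 without control pool 3, where the call was lost.

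This second region has several peaks, and the largest fold change lay in the middle one. In stromal cells the CPM 1200 bp before the window was 0.47 ± 0.0588 in the control and 0.5 ± 0.0739 in the vinclozolin lineage (SD, n = 3 each), and 1900 bp after it 0.678 ± 0.113 and 0.667 ± 0.0226 (SD, n = 3 each). At both places the lineages overlapped. Other windows of the outer peaks did separate, such as the epithelial one 1300 bp before, with 0.315 ± 0.0579 CPM in the control and 0.438 ± 0.0602 in the vinclozolin lineage (SD, n = 3 each). The stromal one 1700 bp after had 0.249 ± 0.0707 and 0.367 ± 0.0227 (SD, n = 3 each). In epithelial pools the window 2700 bp after was lower in the vinclozolin lineage, with 0.176 ± 0.0211 and 0.0914 ± 0.0164 CPM (SD, n = 3 each). E4 and E5 lie 246900 bp apart, and no gene of the study's annotation was matched to them.

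**Figure D2:**
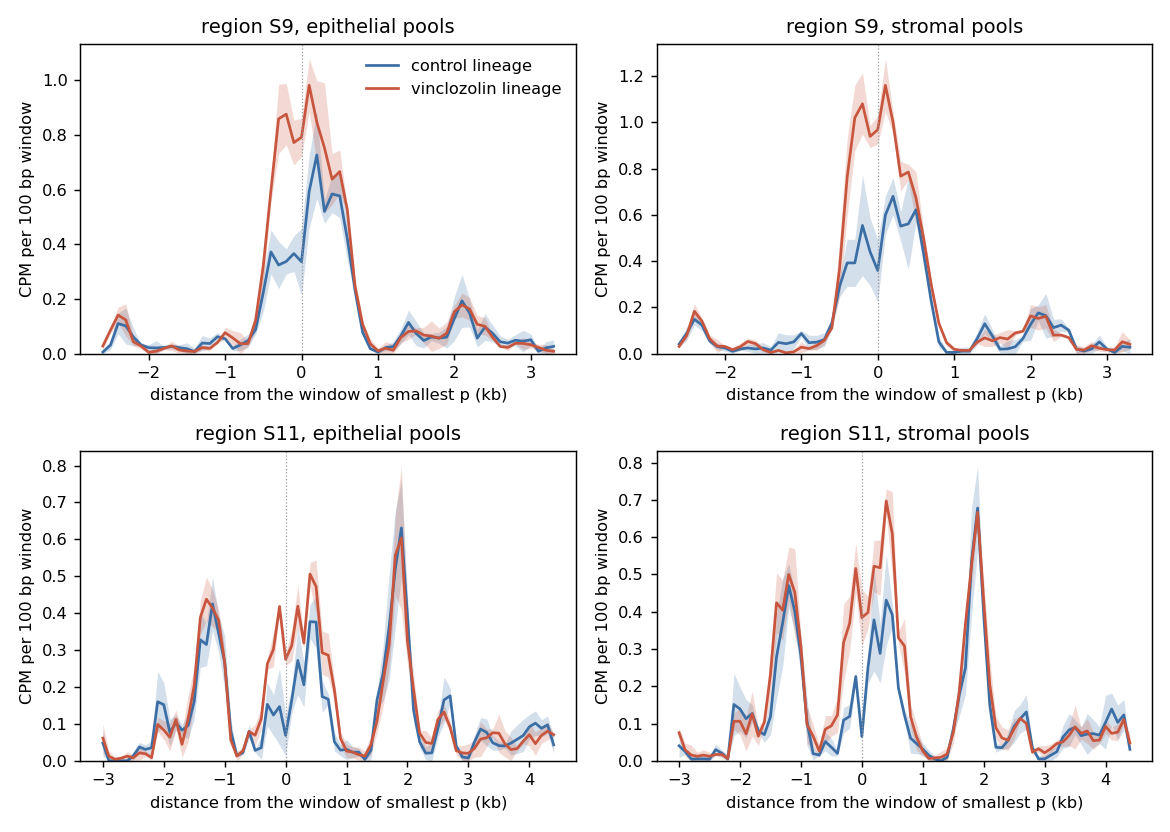
CPM per 100 bp window around the regions called in both cell types, S9 above and S11 below, against the distance in kb from the stromal window of smallest p-value (dotted line). Lines are means of 3 pools and bands the SD; in S9 the lineages lie farthest apart on the left side of the peak, and in S11 in the middle peak, with smaller separations elsewhere.

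In epithelial cells the region with the largest fold change lay next to one of the opposite direction. In E2, from 45281301 to 45281700, the window from 45281501 had 8, 14 and 13 reads in the control lineage pools and 0, 1 and 1 in the vinclozolin lineage pools. The ratio of summed reads, scaled to depth, was 0.047 with an exact 95% interval from 0.00547 to 0.183 that covers counting error only. The fitted log2 fold change of -4.16 (standard error 0.662) rests on those 2 reads. At 200 bp further on the epithelial lineages overlapped, with 0.185 ± 0.0303 CPM in the control and 0.153 ± 0.0292 in the vinclozolin lineage (SD, n = 3 each). The E2 call was kept whichever pool was left out. Stromal pools had 1, 6 and 8 reads in the control and 3, 2 and 2 in the vinclozolin lineage at the same window, and these overlapped.

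E1, from 45277801 to 45280100, ends 1200 bp before E2 and was higher in the vinclozolin lineage. Its window from 45279801 had 4, 18 and 8 reads in the control and 29, 45 and 31 in the vinclozolin lineage (log2 fold change 1.52, standard error 0.29). That window lies on the rising side of a peak, and 300 bp further on the CPM was 0.898 ± 0.0838 in the control and 0.973 ± 0.089 in the vinclozolin lineage (SD, n = 3 each), which overlapped. The call was kept in 1 of 6 fits that left out a pool, the one without control pool 2, where the log2 fold change was 2.13. Stromal pools, with 6, 11 and 20 reads in the control and 39, 37 and 28 in the vinclozolin lineage, did not overlap either.

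**Figure D3:**
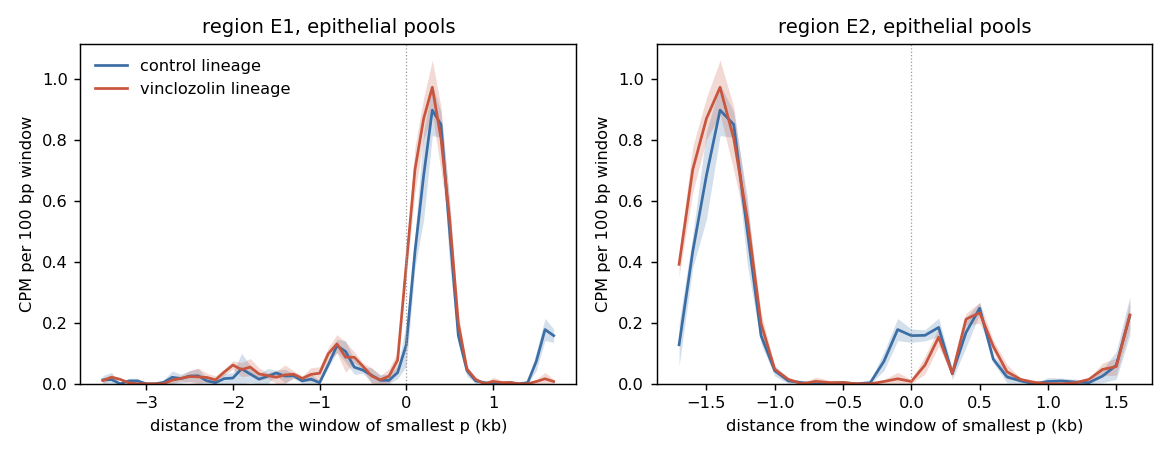
CPM per 100 bp window in epithelial pools around the neighboring regions E1 (left) and E2 (right), against the distance in kb from the window of smallest p-value of each (dotted line), as means of 3 pools with SD bands. In E1 the vinclozolin lineage is higher on the rising side of a high peak, and in E2 the left part of a low peak of the control lineage is nearly absent in the vinclozolin lineage, while the lineages overlap at the highest window of that peak.

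Among the other epithelial regions, E3 from 46622501 to 46623600 was lower in the vinclozolin lineage. The study assigned this place to Bicdl1, which encodes an adaptor that links cargo to the motor dynein. The window from 46623401 had 43, 37 and 35 reads in the control and 18, 18 and 17 in the vinclozolin lineage, and a log2 fold change of -1.41 (standard error 0.251). Control pool 1 was the highest, and the call was kept in 1 of 6 fits that left out a pool. Stromal pools had 22, 33 and 33 reads in the control and 33, 22 and 18 in the vinclozolin lineage (log2 fold change -0.81), and did not overlap once scaled to depth.

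At their windows, the stromal regions that were higher in the vinclozolin lineage had 6 to 73 reads in the 3 control lineage pools together, and those that were lower had 51 to 426. S1, from 45639001 to 45639900, had 5, 7 and 9 reads in the control and 54, 49 and 40 in the vinclozolin lineage (log2 fold change 2.2, standard error 0.288), and its call was kept whichever pool was left out. At the same window epithelial pools had 17, 15 and 11 reads in the control and 39, 44 and 30 in the vinclozolin lineage, which did not overlap either.

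S3, from 46240101 to 46243800, was assigned by the study to 7SK, a small nuclear RNA that holds the elongation factor P-TEFb inactive. Such RNAs have many near-identical copies in a genome, and reads may not be assigned to 1 copy with certainty. The window from 46240201 had 1, 1 and 4 reads in the control and 17, 23 and 12 in the vinclozolin lineage (log2 fold change 2.51, standard error 0.502). The region lost its call in each of the 6 fits that left out a pool, and the log2 fold change was 3.33 without control pool 3. S5, from 48864001 to 48864400, was assigned to Wscd2, which encodes a membrane protein with WSC domains. It had 2, 6 and 2 reads in the control and 26, 20 and 22 in the vinclozolin lineage (log2 fold change 2.19, standard error 0.415), and its call was kept in 2 of 6 fits. Without control pool 2 the log2 fold change of S5 was 2.88 and without control pool 3 it was 1.82.

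The stromal regions that were lower in the vinclozolin lineage had log2 fold changes from -2.19 to -0.6. The lowest value was that of S6, from 49766901 to 49768200, with 18, 15 and 18 reads in the control and 4, 8 and 4 in the vinclozolin lineage (log2 fold change -2.19, standard error 0.38). The study assigned it to Myo18b, an unconventional myosin of striated muscle, as it did S7, from 49870201 to 49871600, where the log2 fold change was -0.94 (standard error 0.188). S6 kept its call in 4 of 6 fits without a pool and S7 in 1.

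S8, from 50065601 to 50066100, had 48, 41 and 63 reads in the control and 44, 36 and 19 in the vinclozolin lineage (log2 fold change -1.17, standard error 0.197). The groups overlap as reads and separate only once scaled to the depth of the vinclozolin lineage pools. The same held for S12, from 50992201 to 50993900, with 113, 124 and 156 reads in the control and 156, 140 and 82 in the vinclozolin lineage and a log2 fold change of -0.6 (standard error 0.139). It held again for S13, from 51200201 to 51200700, with 129, 143 and 133 reads in the control and 148, 142 and 80 in the vinclozolin lineage and a log2 fold change of -0.69 (standard error 0.14). S8 and S12 kept their calls in 4 of 6 fits without a pool and S13 in 1. The part of library depth in these differences was not tested.

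S14, from 51465701 to 51466900, was assigned to Ttc28, which encodes a protein with tetratricopeptide repeats that acts in cell division. It had 56, 62 and 66 reads in the control and 62, 52 and 34 in the vinclozolin lineage (log2 fold change -0.86, standard error 0.175), and separated only once scaled to depth as well. The call was kept in 5 of 6 fits and lost without vinclozolin lineage pool 2. The remaining 5 lower regions (S2, S4, S7, S10 and S15) had log2 fold changes from -1.31 to -0.66. In S4, S7, S10 and S15 the groups also overlapped as reads and separated only once scaled to depth. S2 joined 5 higher and 8 lower windows, and S4 joined 3 higher and 4 lower. The study's annotation gives S15 as a 5S ribosomal RNA, a part of the large ribosomal subunit that is also encoded in many copies. Over all 20 regions, 5 kept their call whichever pool was left out.

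The windows of the 16 regions called in 1 cell type were then read in the other, as a description, since the pools come from the same rats. The direction was the same in 16 of 16. The lineages did not overlap, in that direction, in 12 of them, and overlapped in 4 (E2, S4, S5 and S15). Among all windows tested in the stretch, the lineages separated upward in 6.95% of epithelial and 8.4% of stromal windows and downward in 6.36% and 7.06%. The fold change was smaller in the other cell type in 15 of the 16, which the choice of each window by its p-value favors, with S14 as the exception. Over all windows tested in both cell types the directions were the same in 57.5% of 41122 windows of the stretch and in 56.7% of 216967 windows of the rest of the chromosome.

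**Figure D4:**
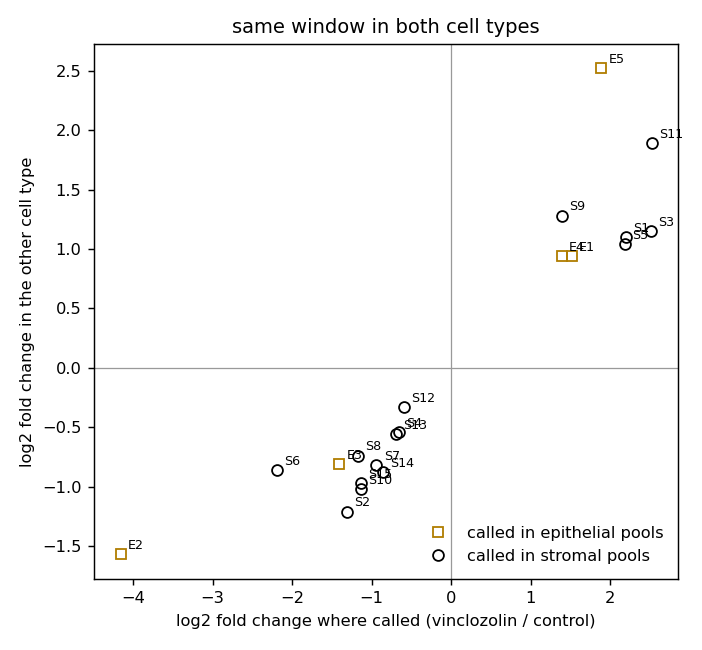
log2 fold change (vinclozolin over control lineage) in the window of smallest p-value of each region, in the cell type that called it (x axis) and in the other cell type (y axis), with squares for epithelial and circles for stromal regions. All 20 points lie in the quadrants of equal sign. The 4 points of E4, E5, S9 and S11 belong to places called in both cell types, and each point's axes come from pools of the same rats. E5 and S11 show the same window with the axes exchanged, and E4 and S9 show windows of the same peak, so these points are not separate from each other.

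The lineage effect was also set side by side in the cell types over 10 kb bins, as the interaction term of edgeR's quasi-likelihood fit with Benjamini-Hochberg adjustment. It is built from the lineage differences on which the stretch was picked, so it is a description here as well. None of the 770 bins of the stretch passed an adjusted p of 0.05, as 0.0% of 274749 bins of the genome did, and the smallest adjusted p in the stretch was 0.569. At an unadjusted p under 0.05 there were 65 of the 770 bins (8.44%), where the genome had 6.71%. DESeq2 on chromosome 12 also passed 0 bins, with 40 of 770 (5.19%) under 0.05, where the whole chromosome had 5.81%. A bin is much longer than the called regions, so a difference confined to a few windows could go unseen.

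The contrast of the cell types was not used to choose the stretch, though it is measured in the same pools. The stretch as a whole held 16.25% ± 0.0811 (SD, n = 6) of chromosome 12 counts in epithelial and 16.2% ± 0.161 (SD, n = 6) in stromal pools. The difference of 0.0491 percentage points was smaller than the spread between pools (two-sided exact permutation test over 924 regroupings, p = 0.526). The exact test that keeps same-numbered pools together as pairs gave p = 0.531. Over windows of at least 40 reads in all the difference was 0.142 points (exact permutation test, p = 0.0628).

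In 10 kb bins, 25 of 770 differed between epithelial and stromal cells at an adjusted p under 0.05 (3.25%), 7 higher and 18 lower in epithelial cells. The rest of chromosome 12 had 3.8% of bins past this limit and the genome 2.15%, 0.888% higher and 1.27% lower. The median log2 difference was -0.0365 over the stretch, -0.0367 over the rest of chromosome 12 and 2.93e-05 over the genome. DESeq2 scaled on chromosome 12 alone passed 20 bins of the stretch, 13 higher and 7 lower. There both the tool and the scaling differ, and the median log2 difference was 0.00355 in the stretch and 0.00345 in the rest of the chromosome. With DESeq2 size factors from the genome in edgeR there were 7 higher and 17 lower, and with pool number as a replicate block also 7 and 17. The number of bins also rested on single pools. It was 40, 16 and 15 without control pool 1, 2 or 3 of both cell types, and 16, 4 and 8 without vinclozolin pool 1, 2 or 3. Without control pool 3 there were 8 higher and 7 lower, while lower bins were more numerous in the other such fits.

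The bin with the smallest p-value was lower in epithelial cells, from 52290001 to 52300000, near the end of the chromosome. Epithelial pools had 1.51 to 2.2 CPM (median 1.77) and stromal pools 2.37 to 3.1 (median 2.72), without overlap. The log2 difference was -0.62 (standard error 0.104, adjusted p = 5.87e-05, edgeR's quasi-likelihood test with Benjamini-Hochberg adjustment). The next was from 48220001 to 48230000, with 3.5 to 3.93 CPM (median 3.74) in epithelial and 4.49 to 5.66 (median 4.79) in stromal pools, a log2 difference of -0.42 (standard error 0.075, adjusted p = 0.000228 by the same edgeR test). The bins from 47470001, 46530001 and 49500001 had log2 differences of -0.27, -0.28 and -0.31. The first of these 3 separated the cell types and the others overlapped.

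Of the bins higher in epithelial cells, the smallest p-value belonged to 47050001 to 47060000, with 5.85 to 7.55 CPM (median 6.63) in epithelial and 4.76 to 5.67 (median 5.33) in stromal pools. These did not overlap, and the log2 difference was 0.34 (standard error 0.067, adjusted p = 0.000889 by edgeR's quasi-likelihood test). The bins from 48750001, 51450001, 51050001 and 50400001 had log2 differences between 0.25 and 0.28, and their pools overlapped. In all, 7 of the 25 bins separated the 6 epithelial from the 6 stromal pools, as did 12 of all 770 bins (1.56%) and 1.29% of bins in the genome. The regions S4 and S14 each touched a bin that differed between the cell types, and both bins were lower in epithelial cells.

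**Figure D5:**
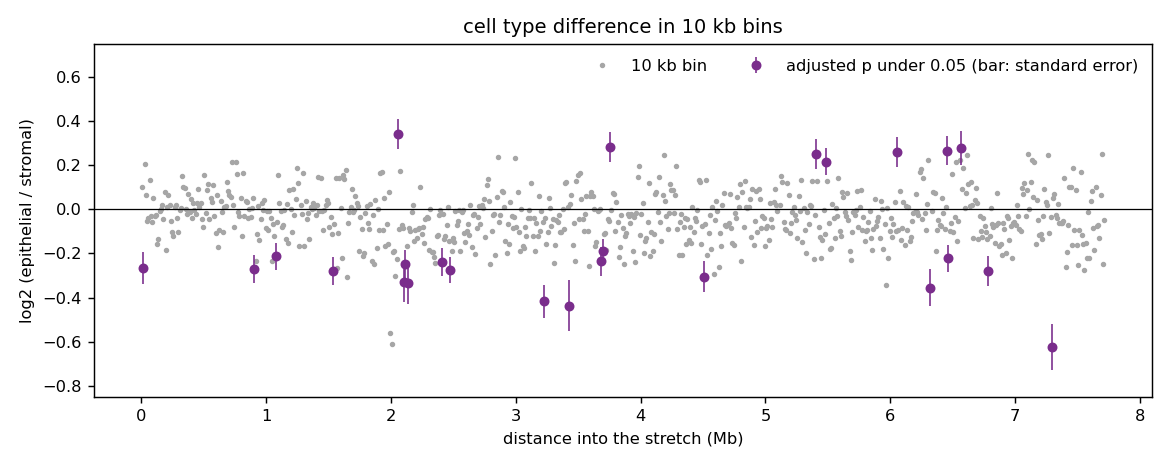
log2 difference in counts (epithelial over stromal) of each of 770 bins of 10 kb, against the distance in Mb from the start of the stretch. Grey points are bins past no limit and purple points the 25 bins with an adjusted p under 0.05, with bars for the standard error; 7 lie above 0 and 18 below.

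At 100 bp, 11 of 12366 windows of the stretch differed between the cell types (0.089%), 4 higher and 7 lower in epithelial cells. In the rest of chromosome 12 the share was 0.134% and in the genome 0.111%. With pool number as a replicate block the number was 7. It was 15, 4 and 5 without control pool 1, 2 or 3, and 5, 1 and 2 without vinclozolin pool 1, 2 or 3. The largest difference was at neighboring windows from 45192301 and 45192401. The first had 0.0132 to 0.169 CPM (median 0.101) in epithelial and 0.268 to 0.385 (median 0.292) in stromal pools, a log2 difference of -1.63 (standard error 0.229, adjusted p = 2.03e-05 by edgeR's quasi-likelihood test). The second had a log2 difference of -1.35 (standard error 0.25). Neither overlapped between the cell types.

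The window from 47054201, inside the bin from 47050001, had 0.145 to 0.309 CPM (median 0.232) in epithelial and 0.077 to 0.119 (median 0.0897) in stromal pools. Its log2 difference was 1.3 (standard error 0.242, adjusted p = 0.00317 by edgeR's quasi-likelihood test). The window from 51536701 was lower in epithelial cells, with a log2 difference of -1.2 (standard error 0.234), and its pools overlapped. The windows from 50401401 and 45769301 were higher in epithelial cells, by 0.67 (standard error 0.14) and 0.73 (standard error 0.17) on the log2 scale, and the latter did not pass with the block (adjusted p = 0.0652 by the same edgeR test). Of the 11 windows, 4 lay in bins that differed, and 0 lay in a called lineage region.

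The genes along the stretch were read as an order only, from the RefSeq annotation of the newer build GRCr8. Between Srrm4, a regulator of neuronal splicing, and Ttc28 it lists 78 protein-coding genes. Cmklr1, a receptor for chemerin, and Wscd2 are next to each other there. Which of these genes hold the regions without an assigned name was not analysed here.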

How the data were processed

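MeDIP-Seq of 12 pools was analysed. Per the labels and the study's methods, the authors used Trimmomatic for trimming, aligned to Rnor_6.0 with Bowtie2, converted files with SAMtools and counted reads per 100 bp window with MEDIPS. Versions and the treatment of duplicate reads are not given in the sources used here. The deposited counts were used. The RPKM, group means and test columns of the same tables (the authors' fold changes and p-values) were not.

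Lineages were compared in each cell type with edgeR 4.0.16 (R 4.3.3), as MEDIPS does, over all windows of the genome with a summed count of at least 10. TMM factors were 0.974 to 1.03. The common dispersion came from 400000 windows, and tagwise dispersions were estimated in 8 parts. The standard errors printed for lineage differences come from edgeR's quasi-likelihood fit. Regions were named by a rule: in each cell type the 5 with the smallest p-values in each direction and those overlapping a region of the other cell type by at least 1 bp. Cell types were compared with edgeR's quasi-likelihood test over 10 kb bins with a summed count of at least 100, and over windows of at least 40 in each cell type. Of these, 5 bins and 3 windows per direction are named. Benjamini-Hochberg adjustment ran across every feature of a fit. DESeq2 1.42.0 was an alternative on chromosome 12. The exact and quasi-likelihood tests were also run on simulated counts, whose outcome is not given here.

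The study's methods divide each pool of rats into both cell types but do not tie the pool numbers to each other. Pools with the same number in both cell types were taken as the same rats. The correlation of their deviations from group means over 193556 bins was -0.0287 to 0.0313, against -0.0308 to 0.0471 for other numbers. P-values rest on the spread between pools, with dispersions estimated partly or wholly from many windows or bins together. Gene names of regions are the study's own. Lists of genes by role could not be placed in this build and were not counted. The stretch, lists and rules were chosen with earlier results of these data known.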

Additional observations from a re-analysis of the deposited data

How the results depend on the processing

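The 5 epithelial regions became 8 by edgeR's quasi-likelihood test, 9 by that test with a replicate block on pool number and 1 with DESeq2 on chromosome 12. The 15 stromal regions became 3 with DESeq2, and 11 and 15 by the quasi-likelihood test without and with the replicate block. The balance of directions in stromal cells, 5 higher and 10 lower, was 10 and 1 with no filter on low counts, 3 and 0 with DESeq2, 8 and 7 by the quasi-likelihood test with the replicate block, 6 and 5 by that test without it, and 5 and 14 without TMM. In epithelial cells it was 6 and 1 with no filter. Control and vinclozolin lineage pools share only a number: over bins, deviations of same-numbered pools correlated between -0.168 and 0.00105 in epithelial and between -0.0426 and -0.00434 in stromal cells. Leaving out each pool gave 2 to 5 epithelial and 8 to 16 stromal regions, 4 to 40 bins and 1 to 15 windows between cell types. A fit within a cell type then has 1 group of 2 pools, and a fit across cell types 2 such groups, assumed to vary like the others. The stromal difference in the share of chromosome 12 was -0.0504 points over windows of at least 40 reads, and -0.29 to -0.161 without a pool. The epithelial one was -0.0803 to 0.0178. The windows between cell types numbered 7 with the replicate block and 7 when 100 reads were required. With the block 2 were higher and 5 lower in epithelial cells, in place of 4 and 7. With 100 reads required the balance turned, with 5 higher and 2 lower. At single named features, 60 of 195 lineage values, 22 of 120 bin values and 10 of 37 window values lost their call under an alternative and 0 turned direction. Windows below the read limit of an alternative were not tested there and are not among the 37. The difference between cell types in the share of the stretch passed no test, at 0.142 points over windows of at least 40 reads and 0.00202 to 0.112 points without a pool. Low counts limit E2 and also S3, which had 1, 1 and 4 control reads. Control reads were also few in S5 (2, 6 and 2), S11 (3, 5 and 5) and E5 (4, 11 and 1).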
